A study of Homo sapiens with 2 samples.

Results

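The genes described here are those of nucleotide excision repair, mismatch repair, base excision repair and single-strand break repair. The list named 46 genes, and 43 of them had a locus of that name in the deposited table, out of 12405 genes compared. A name with several loci was represented by the locus with the highest mean of both values. GTF2H2, GTF2H4 and CDK7 were not analysed here.

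Nucleotide excision repair cuts out a short stretch of a strand that carries a bulky lesion, including the crosslinks that cisplatin forms between neighbouring bases of a strand. Lesions are found either by XPC anywhere in the genome or by a stalled RNA polymerase in a transcribed gene. The helicases of the transcription factor TFIIH then open the helix, the nucleases ERCC1-ERCC4 and ERCC5 cut on either side of the lesion, and the gap is filled. Base excision repair starts with a glycosylase that removes a damaged base and ends with the steps that also mend single-strand breaks. Mismatch repair removes wrongly paired bases after replication, and its proteins also bind platinum adducts.

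The RNA was that of SBC5 cells, a line established from small cell lung cancer, in 2 groups of 1 library each. The parental cells carried no labelled treatment. The cisplatin-resistant cells, labelled CPr, were derived from them by stepwise exposure to cisplatin at 1, 2, 4 and 20 µg/ml. Both were grown in RPMI medium with serum, and whether the resistant line is a clone, and whether drug was present when RNA was taken, is not given in the sources used here. With 1 library per group there was no replicate and no test. Every difference therefore describes these 2 libraries only, has no replicate check, and cannot be told apart from the spread between cultures. In bulk RNA, fewer cells with a transcript and less of it per cell cannot be told apart.

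Values are FPKM, fragments scaled to locus length and library size, so levels of different genes can be set side by side. Depth is unknown, since no fragment counts are given. The log2 ratio sets the resistant against the parental library after adding 1 to each FPKM, which understates the difference of low genes, and its median over all genes was -0.04. Folds are plain ratios of FPKM. All 43 genes had at least 1 FPKM in both libraries and 36 had at least 10 in both. Each was represented by a locus placed on its annotated strand, but the placing itself drew on annotated strands. Of the 10 listed neuroendocrine markers 6 were measured. UCHL1, a neuronal hydrolase, had 251.3 FPKM in the parental library and 259 in the resistant one, and DLL3, a Notch ligand typical of this cancer, had 19.3 and 18.9 FPKM. SYP, the vesicle protein synaptophysin, had 8.56 and 8.62 FPKM. CHGB and NCAM1 were below 2 FPKM in both libraries. SCG2, a secretory granule protein, was lower in the resistant library, at 109 against 20.1 FPKM. YAP1, which marks the non-neuroendocrine form, had 76.6 and 84.7 FPKM, and VIM, the filament protein vimentin, had 389 and 242 FPKM. REST and MYC, also listed for that form, had 31.8 and 39.1 FPKM and 44.2 and 43.1 FPKM. Of the 5 epithelial markers 2 were measured. The adhesion protein gene CDH1 had 0.536 and 4.81 FPKM, and KRT8 had 2.09 and 2.36 FPKM. Of the 5 listed blood cell markers HBB alone was measured, at 2.69 and 0.472 FPKM, and none of the 4 endothelial markers was. The part of these markers in any result was not tested.

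The genes of excision repair differed little between the libraries, with 3 exceptions: ERCC6 and MNAT1 were higher and ERCC1 was lower in resistant cells. ERCC6 was measured at a locus joined with ERCC6-PGBD3, described below. A limit of 1.5-fold, a log2 ratio of 0.58 or more in size, stood in for a test. Of the 43 genes, 2 lay at or past it on the higher side and 1 on the lower side. Among all genes compared 7.59% were past it on the higher side and 6.59% on the lower side, against 4.65% and 2.33% of the repair genes. At 2-fold 1 repair gene was higher, ERCC6, and none was lower, where 3.28% and 2.7% of all genes passed. As 41 of the 43 repair genes reached 5 FPKM, the shares among genes of at least 5 FPKM were also taken, and these were 6.11% (higher) and 5.95% (lower) at 1.5-fold, and 2.82% and 2.58% at 2-fold. A count of 3 among 43 genes is thus no larger than the background. The median log2 ratio of the 43 genes was -0.11, with the middle of the list between -0.25 and 0.04, and 14 genes lay within 0.1 of zero.

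Of the repair genes 29 lay below 0 and 14 above, that is 67.4% below against 55.6% of all genes. This division depended on scaling. When the FPKM of each library were scaled to the same sum 35 lay below 0 and 8 above, against 66.1% of all genes below. After division by the median ratio 24 lay below and 19 above, against 49.9% of all genes below. The 12 genes that turned to the other side of 0 under some alternative were XPA, CETN2, XAB2, ERCC2, ERCC3, GTF2H1, CCNH, ERCC4, MLH3, MSH3, XRCC1 and TDG, all within 0.08 of zero, so they are given no direction.

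**Figure D1:**
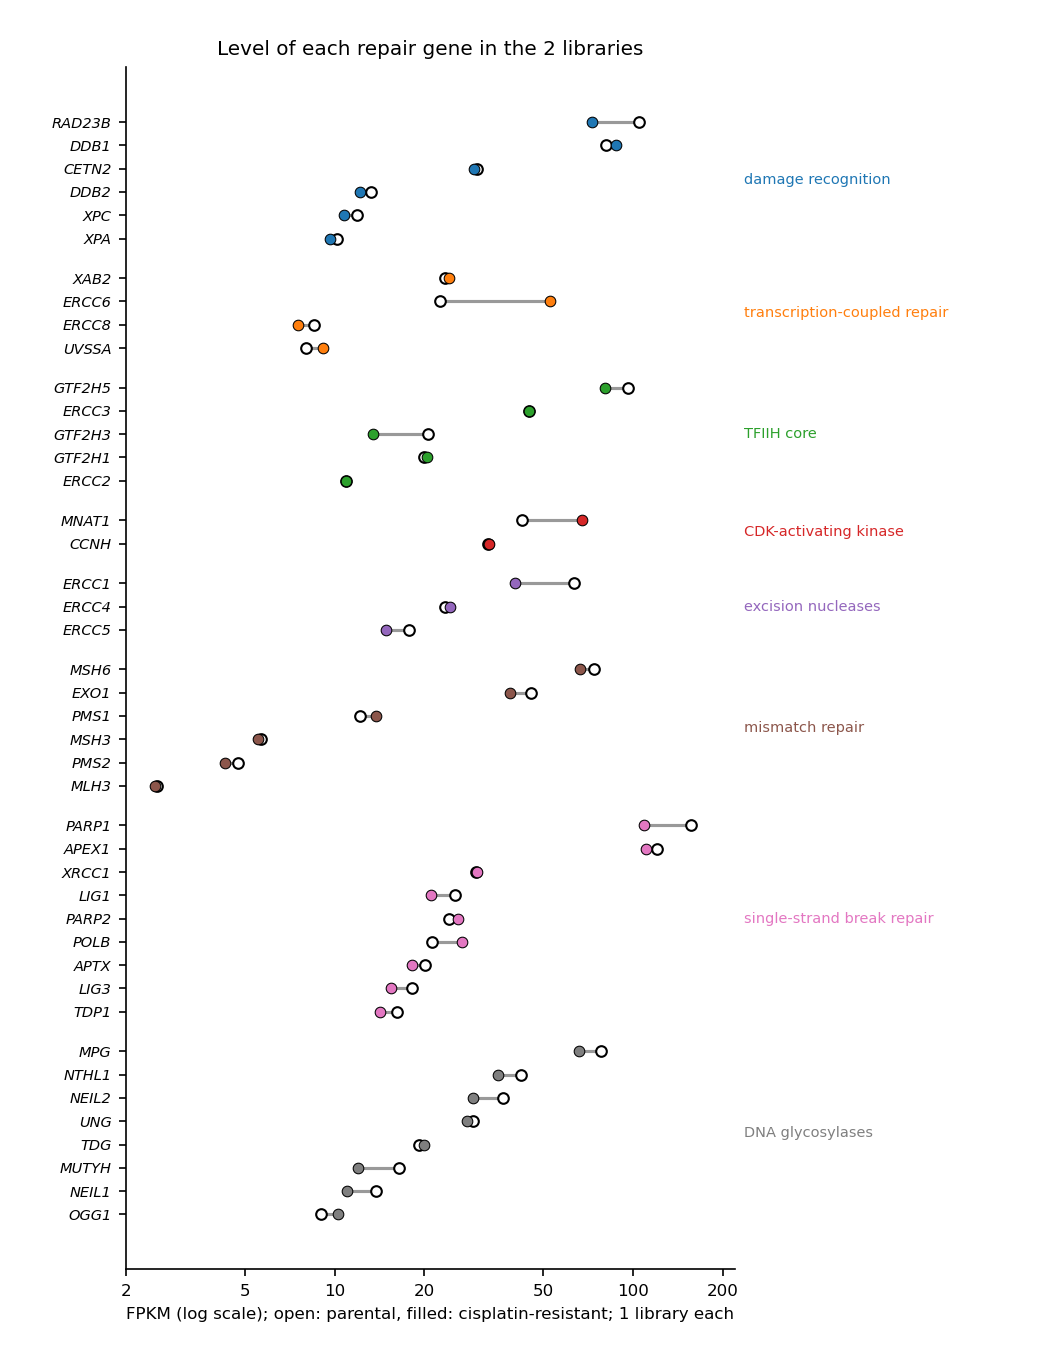
FPKM of the 43 measured repair genes on a log axis, grouped by role, with an open circle for the parental library and a filled circle for the resistant library. The circles of most genes lie close together. ERCC6, measured at a locus joined with ERCC6-PGBD3, moves from 22.5 to 52.9, MNAT1 from 42.5 to 67.4 and ERCC1 from 63.4 to 40.2 FPKM.

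Since ERCC6, MNAT1 and ERCC1 stood past the limit, the stretches before their start sites are printed here from RefSeq, build GRCh38.p14, which is the same assembly as hg38. Each is 150 bases long, reads 5′ to 3′ on the strand of the gene, and stops where an annotated exon begins. Capitals mark a match to any of the motifs named below.
ERCC6, downstream start, chr10:49539122-49539271, minus strand: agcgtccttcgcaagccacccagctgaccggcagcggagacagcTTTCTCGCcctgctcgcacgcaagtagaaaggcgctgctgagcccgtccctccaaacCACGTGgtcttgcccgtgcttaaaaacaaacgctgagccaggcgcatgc
ERCC6, upstream start, chr10:49539539-49539688, minus strand: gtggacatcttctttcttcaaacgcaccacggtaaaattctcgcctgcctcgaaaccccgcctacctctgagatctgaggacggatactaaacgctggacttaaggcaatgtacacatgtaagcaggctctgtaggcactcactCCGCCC
MNAT1, chr14:60734592-60734741, plus strand: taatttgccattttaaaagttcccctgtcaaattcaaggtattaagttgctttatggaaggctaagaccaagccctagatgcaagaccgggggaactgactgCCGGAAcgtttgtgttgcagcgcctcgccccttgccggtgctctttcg
ERCC1, chr19:45423606-45423755, minus strand: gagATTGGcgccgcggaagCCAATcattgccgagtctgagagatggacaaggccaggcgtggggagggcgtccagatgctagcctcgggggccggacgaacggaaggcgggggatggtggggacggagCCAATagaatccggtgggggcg

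The motifs, searched on both strands, were the GC box GGGCGG, the CCAAT box CCAAT, the ETS core CCGGAA, the NRF1 motif, the E-box CACGTG, the E2F form TTTNNCGC, the antioxidant response element TGACNNNGC, the AP-1 form TGANTCA and the TATA box TATAAA. Different motifs may overlap. In the printed stretches the downstream start of ERCC6 had an E2F form and an E-box, and its upstream start had a GC box. MNAT1 had an ETS core there, and ERCC1 had 3 CCAAT boxes. ERCC1 had 3 start windows of 300 bases in RefSeq, and of those not shown 1 held an ETS core, as MNAT1 did, and 1 held no match. Over whole windows a GC box was found in both of ERCC6 and in the one of ERCC1 that the printed stretch comes from. The window of the downstream start of ERCC6 also held the NRF1 motif, which had no match in the printed stretch. A match is a run of letters, not a bound site.

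RefSeq windows of 300 bases, 250 before and 50 after a start, were found for 41 of the 43 genes, 58 windows in all. Their median GC content was 64.5%, from 36.7% to 78.0%, against 58.7% over all 35116 windows, which include those of noncoding genes. A GC box was present in 74.1% of the windows of repair genes and 45.0% of all windows. The ETS core was present in 34.5% against 17.2%, the E2F form in 22.4% against 6.89%, and the antioxidant response element in 20.7% against 13.3%. For the CCAAT box the shares were 39.7% and 34.6%, for the E-box 15.5% and 7.26%, and for the NRF1 motif 5.17% and 1.24%. The AP-1 form was present in 3.45% of the windows of repair genes and 7.71% of all. The TATA box was found in 0 of the 58 windows, against 11.5% of all.

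Among the genes of damage recognition 6 of 6 lay within 1.5-fold, as did 10645 of all 12405 genes. The median log2 ratio of the group was -0.09. XPC, which binds the distorted helix, had 11.91 FPKM in the parental library and 10.8 in the resistant one. RAD23B, the partner that stabilises XPC, had 105 FPKM in the parental library and 73.2 in the resistant one (log2 ratio -0.52), a fold of 1.44. It was the gene of this group with the largest difference. Levels of RAD23B were 8.82 times those of XPC in parental and 6.80 times in resistant cells. CETN2, a centrin that is the other subunit of the XPC complex, had 30.05 and 29.4 FPKM.

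DDB1 and DDB2 form the complex that finds ultraviolet lesions and hands them to XPC. DDB1, also the adaptor of the CUL4 ubiquitin ligases, had 81.4 FPKM in the parental library and 87.5 in the resistant one. DDB2, which touches the lesion, had 13.2 and 12.2 FPKM. XPA, which checks the lesion once the helix is open, had 10.2 and 9.63 FPKM (log2 ratio -0.07). These 3 genes lay within 1.5-fold.

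The 4 genes of transcription-coupled repair held the largest difference of the list. ERCC6 encodes CSB, the ATPase that binds a stalled RNA polymerase. At its locus the level was 22.5 FPKM in the parental library and 52.9 in the resistant one (log2 ratio 1.20), a fold of 2.35. The resistant library was the higher by more than the 2-fold limit. The rank was 284 from the top among the 12405 genes. Of the 620 genes in the ERCC6 level bin, 1 of 20 by mean level, 7 had a log2 ratio at least as high, ERCC6 included. The table gave this locus the joined name of ERCC6 and ERCC6-PGBD3, a transcript that joins the early exons of ERCC6 to a transposase gene in its intron. The value is thus of both, and the share of either cannot be told apart. On hg38 ERCC6 runs from 49455368 to 49539538 on the minus strand of chromosome 10 in GENCODE release 29.

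A further locus named ERCC6 pointed the same way at a lower level. It had 3.44 FPKM in the parental library and 6.29 in the resistant one (log2 ratio 0.71) and lay in the part of the table without a strand. The ratio equalled that of 6 to 11 after scaling by 0.996, the worth of 1 read in the resistant library over that in the parental library, as it would with such small numbers of reads or multiples of them.

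The partners of ERCC6 did not pass 1.5-fold, like 10645 of all 12405 genes. ERCC8, the CSA protein of the ubiquitin ligase that joins ERCC6 at the polymerase, had 8.54 and 7.57 FPKM (log2 ratio -0.15). The level at the joined locus of ERCC6 and ERCC6-PGBD3 was 2.64 times that of ERCC8 in parental and 6.98 times in resistant cells. UVSSA, which brings TFIIH to the stalled polymerase, had 8.05 and 9.15 FPKM (0.17). XAB2, a splicing protein that binds XPA, had 23.4 and 24.2 FPKM (0.05).

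TFIIH holds 7 core subunits and a kinase module of 3, and 5 and 2 of these were measured. The helicase ERCC3 had 44.97 FPKM in the parental library and 44.9 in the resistant one. The helicase ERCC2, which unwinds the helix at the lesion, had 10.9 FPKM in both libraries. GTF2H1, the largest of the remaining subunits, had 20.0 and 20.4 FPKM. These 3 subunits had nearly equal values in both libraries, with log2 ratios between -0.003 and 0.03.

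GTF2H5, the small subunit that stimulates ERCC3 and is needed for repair more than for transcription, had 96.2 and 80.7 FPKM (log2 ratio -0.25). GTF2H3, a structural subunit, had 20.5 FPKM in the parental library and 13.5 in the resistant one (-0.57), a fold of 1.52. It lay just inside the limit on the log2(FPKM + 1) scale and passed it under a pseudocount of 0.1 (-0.60) and under equal sums (-0.65). GTF2H3 is on chromosome 12 from 123633739 to 123662606 on the plus strand, and its annotated start is 27 bases from that of EIF2B1, a translation factor gene read in the opposite direction. EIF2B1 had 53.6 and 38.6 FPKM (-0.46), so both genes of this pair were lower in the resistant library. Of 17 such pairs of repair genes and opposite-strand partners, 5 lay on the same side of 0.

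The kinase module of TFIIH phosphorylates RNA polymerase II and the cell cycle kinases. MNAT1, its assembly factor MAT1, had 42.5 FPKM in the parental library and 67.4 in the resistant one (log2 ratio 0.65), a fold of 1.58. Under equal sums it was 0.57, inside the limit. CCNH, the cyclin of the module, had 32.6 and 33.0 FPKM (0.02). MNAT1 was at 1.30 times the level of CCNH in parental and 2.04 times in resistant cells. Of the 621 genes in its level bin 19 had a log2 ratio at least as high, MNAT1 included. MNAT1 runs from 60734742 to 60969953 on the plus strand of chromosome 14.

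The excision nucleases included the gene with the lowest log2 ratio of the list. ERCC1, the non-catalytic partner that positions the cut before the lesion, had 63.4 FPKM in the parental library and 40.2 in the resistant one (log2 ratio -0.64), 1.58-fold lower. It ranked 714 from the bottom among all genes. In its level bin 17 of 621 genes, ERCC1 included, had a log2 ratio as low or lower. ERCC4, the catalytic partner, had 23.4 and 24.5 FPKM (0.06). The ERCC1 to ERCC4 level ratio was 2.71 in parental and 1.64 in resistant cells, so ERCC1 was the higher of the pair in both libraries. ERCC5, which cuts on the other side of the lesion, shared a joined locus with its neighbour BIVM, at 17.8 and 14.8 FPKM (-0.25). ERCC1 is annotated at 45407333 to 45478828 of chromosome 19, minus strand.

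**Figure D2:**
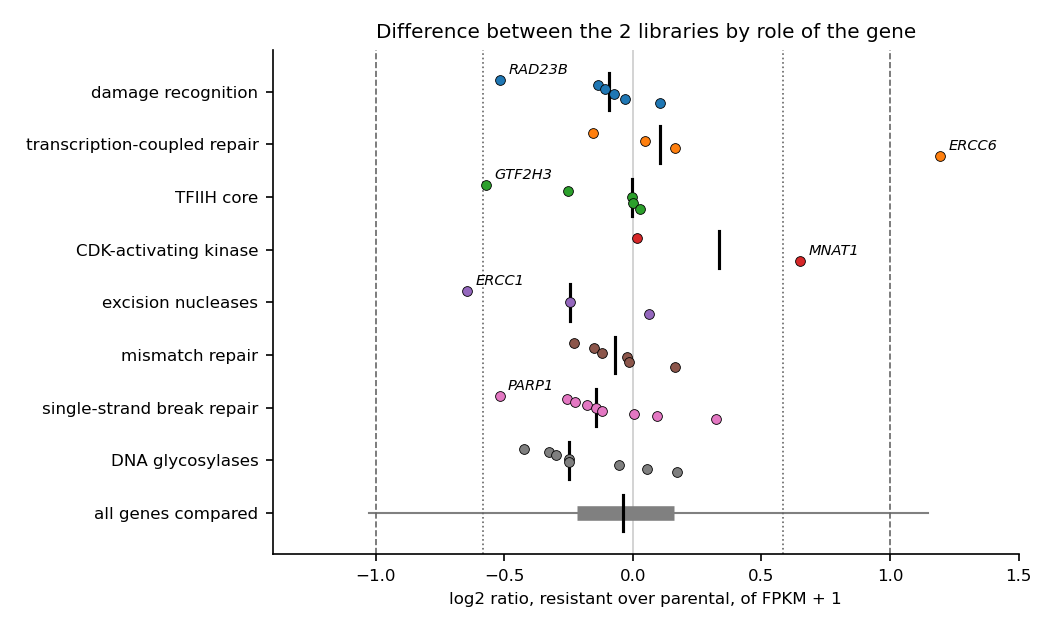
Log2 ratio of FPKM + 1, resistant over parental, for each repair gene by role, with a short black line at the median of the group, dotted lines at 1.5-fold and dashed lines at 2-fold. The bottom row gives all 12405 genes as the median, the middle 50% and the central 95%. ERCC6, MNAT1 and ERCC1 lie past the dotted lines, and GTF2H3 lies just inside.

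None of the 6 mismatch repair genes passed 1.5-fold, where 10645 of all 12405 genes did not, and their median was -0.07. MSH6, which pairs with another MutS protein to read single mismatches, had 74.2 FPKM in the parental library and 66.7 in the resistant one (log2 ratio -0.15). MSH3, which takes its place for longer loops, had 5.66 and 5.55 FPKM (-0.02). The level of MSH6 was 13.1 times that of MSH3 in parental and 12.01 times in resistant cells.

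Among the MutL genes, PMS2, the endonuclease subunit, had 4.75 and 4.30 FPKM. This value is uncertain, since PMS2 has near-identical copies whose reads may be exchanged with it. PMS1 had 12.2 and 13.8 FPKM (log2 ratio 0.16), and MLH3, which acts mainly in meiosis, had 2.54 and 2.496 FPKM. MLH3 had the lowest level of all 43 genes. EXO1, the exonuclease that removes the strand with the error, had 45.4 and 38.6 FPKM (-0.23). PMS1 was the only one of these 6 genes above 0 on the deposited scaling. After division by the median ratio MLH3 (0.013) and MSH3 (0.011) also lay above 0.

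In single-strand break repair 9 of 9 genes lay within 1.5-fold, as did 10645 of all 12405 genes. The median of the 9 was -0.14. PARP1, the enzyme that marks breaks with chains of ADP-ribose, had 156 FPKM in the parental library and 109 in the resistant one (log2 ratio -0.52), a fold of 1.44. PARP2, its relative, had 24.2 and 25.9 FPKM (0.09). PARP1 had 6.45 times the level of PARP2 in parental and 4.202 times in resistant cells. The level of PARP1 was the highest of the list in the parental library, and in the resistant library that of APEX1, at 111 FPKM, was higher. Under equal sums PARP1 (-0.60) and RAD23B (-0.60) passed 1.5-fold. The gene PARP1 spans 226360691 to 226408079 of chromosome 1, minus strand.

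APEX1, the endonuclease that cuts where a base has been lost, had 120.5 FPKM in the parental library (log2 ratio -0.12). XRCC1, the scaffold of break repair, had 29.9 and 29.99 FPKM (0.00), and LIG3, the ligase it holds, had 18.2 and 15.4 FPKM (-0.22). LIG1, the ligase of replication and long patches, had 25.4 and 21.1 FPKM (-0.26). Both ligases were thus somewhat lower, at nearly the same ratio to each other, 1.396 in parental and 1.37 in resistant cells. POLB, the gap-filling polymerase, had 21.2 and 26.7 FPKM (0.32), the highest log2 ratio of this group. The end-cleaning enzymes APTX, which removes AMP from stalled ligations, and TDP1, which removes trapped topoisomerase, had 20.1 and 18.1 FPKM (-0.14) and 16.1 and 14.2 FPKM (-0.18).

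The 8 DNA glycosylases had a median of -0.25, with 0 genes past 1.5-fold, where 10645 of all 12405 genes were not past it. On the deposited scaling 6 of 8 lay below 0, against 55.6% of all genes. The excision nucleases had the same median as the glycosylases to 2 decimals. For the glycosylases it ranged over the alternatives from -0.33, under equal sums, to -0.21, after division by the median ratio. MUTYH, which removes adenine paired with oxidised guanine, had 16.4 FPKM in the parental library and 11.98 in the resistant one (log2 ratio -0.42). OGG1, which removes the oxidised guanine itself, had 9.03 and 10.3 FPKM (0.17). These 2 genes of the same lesion lay on either side of 0.

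MPG, the glycosylase of alkylated purines, had 78.4 and 65.8 FPKM (log2 ratio -0.25). NTHL1, which acts on oxidised pyrimidines, had 42.3 and 35.4 FPKM (-0.25). NEIL1 had 13.7 and 11.0 FPKM (-0.30) and NEIL2 had 36.8 and 29.2 FPKM (-0.33), both enzymes that remove oxidised bases. Of the glycosylases of uracil and its derivatives, UNG had 29.01 and 27.9 FPKM (-0.06) and TDG had 19.1 and 19.9 FPKM (0.06). These last genes differed least between the libraries.

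**Figure D3:**
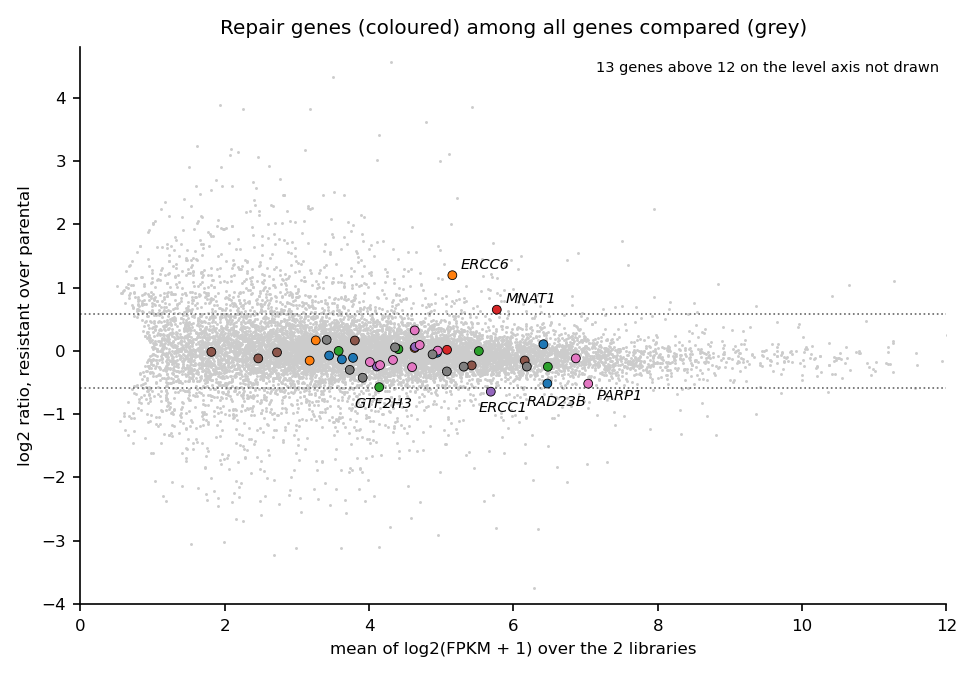
Each grey point is 1 of the genes compared, those above 12 on the level axis not being drawn, by its mean level on the log2(FPKM + 1) scale and its log2 ratio, resistant over parental, and coloured points are the 43 repair genes in the colours of their roles, with dotted lines at 1.5-fold. The repair genes lie in the dense band, and ERCC6 (1.20), MNAT1 (0.65) and ERCC1 (-0.64) stand at its edges.

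Of the genes with several loci, 9 repair genes had 12 further loci, all in the part of the table without a strand. These had between 0.366 and 6.29 FPKM. In 9 of the 12 the ratio of the libraries was, within a relative tolerance of 2e-05, 0.996 multiplied by a quotient of whole numbers no larger than 20, and in 0 of the 43 representing loci did it do so. XPA had a further locus at 0.366 and 1.83 FPKM (log2 ratio 1.05), which equals 1 to 5 reads or a multiple of these, where its main locus had -0.07. The further loci of XPA and ERCC6 were the only ones past 1.5-fold. For NEIL1 the further locus had 0.934 and 1.69 FPKM (0.48) against -0.30 at the main locus. Of 3 further loci of ERCC4, 1 had 5.18 and 5.56 FPKM (0.09), and the others had -0.36 and -0.004.

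**Figure D4:**
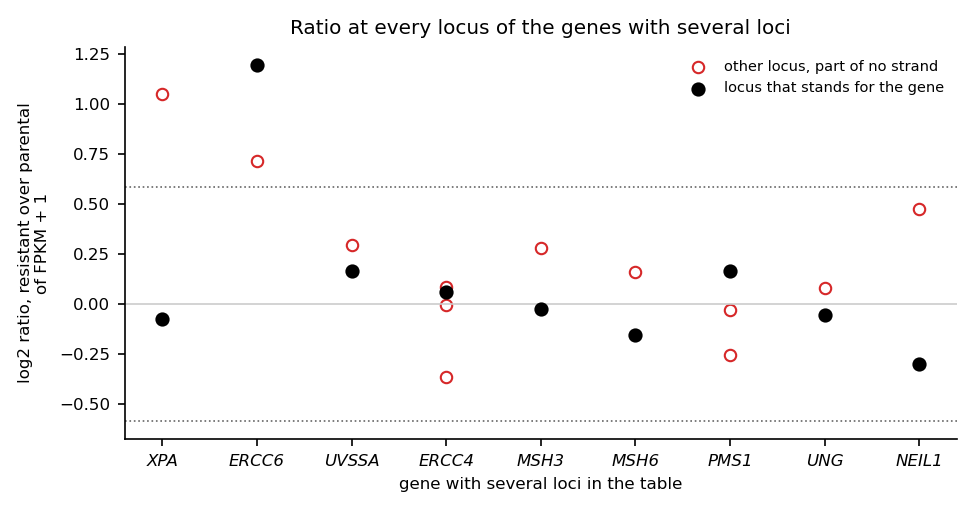
Log2 ratio of FPKM + 1, resistant over parental, at every locus of the 9 repair genes with several loci, with a filled circle for the locus that stands for the gene, open circles for its other loci and dotted lines at 1.5-fold. Both loci of ERCC6 (1.20 and 0.71) lie past the upper line, while XPA lies past it at its other locus (1.05) and near 0 at its main locus.

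The neighbours of the 3 genes past 1.5-fold were examined within 1 Mb of the start, taking strand-placed genes. The outermost annotated start of each gene was used, which for ERCC1 is 45478828 and not the start of its printed bases. ERCC1 had 38 such neighbours with a median log2 ratio of 0.09, and none was as low as ERCC1. The helicase gene ERCC2, which lies in that stretch, had -0.001. ERCC6 had 7 neighbours with a median of -0.03, and 2 of them were at least 1.5-fold higher. They were ARHGAP22 (3.49 and 8.18 FPKM) and the pseudogene FAM21EP (0.634 and 1.47 FPKM, log2 ratio 0.60). FAM21EP thus had a low level and lay just past the limit. PARG, the enzyme that removes ADP-ribose chains, lies in the same stretch and had 13.0 and 12.7 FPKM.

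MNAT1 had 9 neighbours with a median of -0.005. The homeobox gene SIX4 (33.0 and 64.4 FPKM, log2 ratio 0.94) starts 10.4 kb before MNAT1, and RTN1 (1.45 and 3.44 FPKM, 0.85) starts 864 kb before it. Both had a log2 ratio above that of MNAT1. The 4 neighbours that start beyond MNAT1 in its direction had log2 ratios from -0.24 to -0.02.

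**Figure D5:**
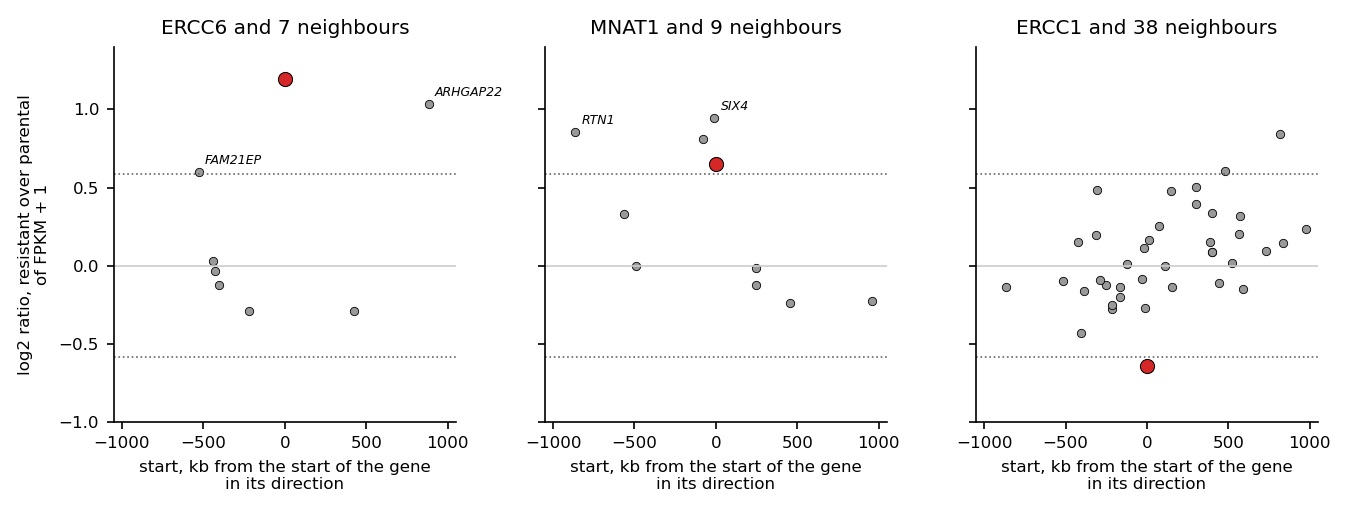
Log2 ratio of FPKM + 1, resistant over parental, of ERCC6, MNAT1 and ERCC1 (red) and of the strand-placed genes that start within 1 Mb (grey), against the distance between starts in kb in the direction of the gene, with dotted lines at 1.5-fold. ERCC1 lies below all 38 of its neighbours, and MNAT1 (0.65) lies below SIX4 (0.94) and RTN1 (0.85), which start before it.

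By the same annotated starts, a start within 1 kb of that of an opposite-strand gene was found for 17 of the 43 repair genes. None of the 17 partners was past 1.5-fold, where 7.59% of all genes were on the higher side and 6.59% on the lower side. RHBDF1, the partner of MPG, had 18.2 and 24.4 FPKM (0.41) beside -0.25 for MPG. In the GTF2H3 and EIF2B1 pair both genes were below -0.4. On the deposited scaling 5 of the 17 pairs lay on the same side of 0.

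Other genes of the same pathways were taken from 4 lists. Beside their counts, 7.59% of all genes compared were past 1.5-fold on the higher side and 6.59% on the lower side. Of 18 genes of repair synthesis, the sliding clamp PCNA, its loader, the replicative polymerases, RPA and FEN1, 0 passed 1.5-fold in either direction, with a median of -0.11 and 16 of 18 below 0. Their log2 ratios ran from -0.36 for RPA3 to 0.05. On the deposited scaling 55.6% of all genes lay below 0, against 66.1% under equal sums and 49.9% after division by the median ratio. The division of this list around 0 was not taken under the other scalings. Of 19 measured other excision repair factors 1 was higher and 1 lower. USP45, the deubiquitinase of ERCC1, had 98.9 FPKM in the parental library and 332 in the resistant one (log2 ratio 1.74), a fold of 3.36, and a further locus of that name in the part without a strand was lower in the resistant library. COPS2, a subunit of the signalosome that restrains CUL4 ligases, had 38.1 and 23.2 FPKM (-0.69).

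Of 19 measured other genes of base excision and break repair 1 was higher and 0 were lower. PARP3, a relative of PARP1 that acts at breaks, had 5.60 and 11.1 FPKM (log2 ratio 0.87). The 8 general transcription factors of RNA polymerase II outside TFIIH had a median of -0.14 and 0 genes past 1.5-fold. The median of the 5 measured TFIIH core subunits was -0.003, and 0.04 after division by the median ratio.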

How the data were processed

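Polyadenylated RNA of 1 parental and 1 cisplatin-resistant SBC5 culture was made into strand-preserving libraries, per the labels' protocols. The authors deposited FPKM values, with a column for each library, per the file headers. TopHat2 and build hg38 are listed, with no version or role, per the submitters' processing notes. What computed the FPKM, and on which annotation, is not given in the sources used here.

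The table held 19217 loci. Loci without a name (2919) or with a date as name (23) were dropped, a joined name was kept whole, and a gene was compared if either library reached 1 FPKM. FPKM sums were 1019555 and 1081047. The strand of a locus was inferred from the order of the table. Borders between the strand parts were chosen largely by agreement with the strands of GENCODE release 29. In this way 12873 loci were placed on a strand, and 98.7% of those with an annotated strand matched it. That match was fitted and is no independent check. The inferred strand is not recorded in the table. The worth of 1 read was the commonest ratio among loci under 5 FPKM.

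With 1 library per group no test was possible, and limits of 1.5-fold and 2-fold on log2(FPKM + 1) replaced it. All members are named. Genes of other lists were named at or past 1.5-fold, and RPA3, PARG, neighbours and partners were named after their values were seen. Some neighbours and partners are not reported here. The members and lists were chosen with earlier results of these data known. Alternatives were a filter of 5 FPKM or none, a pseudocount of 0.1 or 5, an equal sum, the median ratio, summed loci and strand-placed loci only. The procedure was tested on simulated data. The software was matplotlib 3.10.9, NumPy 2.4.6, pandas 2.3.3 and SciPy 1.17.1 under Python 3.11.15.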

Additional observations from a re-analysis of the deposited data

How the results depend on the processing

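The counts of repair genes past 2-fold, 1 higher and 0 lower, were the same under all 8 alternatives. At 1.5-fold, 2 genes were higher and 1 lower. With a pseudocount of 0.1, 2 were lower, GTF2H3 being added. Under equal sums, 1 was higher and 4 were lower: MNAT1 left the count (0.57), and RAD23B (-0.60), GTF2H3 (-0.65) and PARP1 (-0.60) joined ERCC1. That scaling moved the median of the 43 genes to -0.19 and that of all genes to -0.12. Division by the median ratio moved the median of the TFIIH core from -0.003 to 0.037. ERCC6 lay between 1.07 and 1.24 and ERCC1 between -0.73 and -0.60. Of the 43 genes 31 kept their sign in every setting, and 12 turned it, all with a log2 ratio within 0.08 of zero. No paired analysis was possible because each group held 1 library. Depth is unknown, so values that rest on few reads could not be marked with certainty.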
